A study of Mus musculus with 4 samples.

Results

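The heavy chain variable genes (Ighv) encode the part of the antibody heavy chain that contacts antigen, and their transcripts were read here as a view of which variable genes the B cells of each culture carried. Members were all rows of the deposited count table whose symbol starts with Ighv and that had at least 20 read counts summed over the 4 libraries. The rule gave 99 genes, of 185 Ighv rows and 55401 rows in all. Of the 86 Ighv rows below the minimum, 57 had no count in any library. Just inside it were Ighv1-70 with 20 counts and Ighv1-43 with 23, and just outside it Ighv4-2 and Ighv8-7 with 19 each.

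The RNA came from splenic B cells of C57BL/6 mice in culture, measured by poly(A) RNA sequencing. There were 2 libraries from mice labelled as Adar1 cKO, a knockout of this RNA-editing deaminase restricted to B cells, and 2 from wild-type mice. Cells of both genotypes were enriched with anti-CD43 beads and grown for 36 h with anti-CD40 at 1 µg/ml, which acts as T-cell help does, and anti-IgM at 10 µg/ml, which engages the B-cell receptor. The sources used here name neither the promoter that drove the deletion nor the mouse or culture behind each library. The p-values of the fits set each difference against the spread among these libraries. Some of that spread may be technical, and whether it includes variation between mice is unknown.

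Each developing B cell joins 1 variable segment to a D and a J segment, and the joined exon is transcribed from the variable gene's own promoter and spliced to a constant region. Segments that have not been joined give little stable polyadenylated RNA. Read counts on the Ighv rows of a mixed culture therefore add up rearranged genes of many cells, and a share of counts depends both on how many cells carry a gene and on how much RNA each makes. In bulk RNA, fewer cells of a type and less RNA per cell cannot be told apart. Of the 99 members, 94 are annotated as variable genes and 5 as variable pseudogenes (GENCODE release 21 for mouse, GRCm38). All 99 lie on the minus strand of chromosome 12, between 159.9 and 2581.5 kb from the start of Ighm, the gene for the IgM constant region.

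The members resemble each other closely, and the sources used here do not say how reads were divided among near-identical copies. Between members of the same family the variable exons had a median identity of 85.2%, over 1341 pairs, against 59.5% over 3510 pairs of different families. In 70 of 99 members every stretch of 100 bases was found in no other Ighv row, and in 6 members under 80% of the stretches were. Ighv1-62-2 had a variable exon identical to that of Ighv1-71, and its values are uncertain for that reason.

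The next sequences are shown because the results turn on these genes and because they show how few bases tell them apart. Each is the last 300 bases of the variable exon on the minus strand of chromosome 12 (GRCm38), 5′ to 3′, and capitals mark the bases that differ from the named partner. Ighv1-26 had the highest mean usage of the 99 members, and over these bases it differs from Ighv1-18, also among the 10 most used, at 8 positions.
Ighv1-26 (chr12:114788372-114788671): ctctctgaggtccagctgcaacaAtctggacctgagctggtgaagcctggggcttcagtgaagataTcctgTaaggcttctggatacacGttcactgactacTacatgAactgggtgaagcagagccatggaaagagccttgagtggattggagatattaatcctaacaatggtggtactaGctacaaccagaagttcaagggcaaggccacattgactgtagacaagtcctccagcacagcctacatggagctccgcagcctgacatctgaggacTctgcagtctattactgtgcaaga
Ighv1-18 (chr12:114682632-114682931): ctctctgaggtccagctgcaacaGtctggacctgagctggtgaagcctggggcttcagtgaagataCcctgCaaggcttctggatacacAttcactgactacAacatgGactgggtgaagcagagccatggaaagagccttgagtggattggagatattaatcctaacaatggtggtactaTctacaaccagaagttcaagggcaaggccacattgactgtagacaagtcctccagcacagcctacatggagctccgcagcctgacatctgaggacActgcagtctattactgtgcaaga
Ighv1-52 and Ighv1-61 differ at 4 positions, and the share of counts of both was lower in the cKO-labelled libraries.
Ighv1-52 (chr12:115145487-115145786): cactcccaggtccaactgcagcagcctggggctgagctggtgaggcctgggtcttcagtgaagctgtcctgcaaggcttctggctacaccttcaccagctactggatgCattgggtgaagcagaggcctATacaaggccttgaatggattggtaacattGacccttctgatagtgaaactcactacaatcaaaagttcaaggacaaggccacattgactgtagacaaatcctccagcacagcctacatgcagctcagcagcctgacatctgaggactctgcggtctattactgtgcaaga
Ighv1-61 (chr12:115359140-115359439): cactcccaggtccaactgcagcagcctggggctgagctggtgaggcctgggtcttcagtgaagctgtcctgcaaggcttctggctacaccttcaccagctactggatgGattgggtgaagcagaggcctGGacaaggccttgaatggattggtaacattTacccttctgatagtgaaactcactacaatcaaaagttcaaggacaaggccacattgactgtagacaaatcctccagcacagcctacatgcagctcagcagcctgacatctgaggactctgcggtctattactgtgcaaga
Ighv1-84 and Ighv2-6-8 had large relative differences between the genotypes. Capitals mark 14 bases that differ from Ighv1-66 in Ighv1-84, and 14 that differ from Ighv2-6 in Ighv2-6-8. These partners are not the nearest rows. Over the variable exon, Ighv1-84 differs from Ighv1-75 at 12 positions, and Ighv2-6-8 from Ighv2-9 at 12.
Ighv1-84 (chr12:115980702-115981001): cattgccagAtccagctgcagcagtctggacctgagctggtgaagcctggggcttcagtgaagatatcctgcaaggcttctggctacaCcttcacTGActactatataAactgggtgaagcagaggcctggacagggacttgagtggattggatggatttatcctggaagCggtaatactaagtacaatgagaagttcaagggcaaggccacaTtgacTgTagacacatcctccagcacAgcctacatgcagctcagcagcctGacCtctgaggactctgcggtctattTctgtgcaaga
Ighv2-6-8 (chr12:113796138-113796437): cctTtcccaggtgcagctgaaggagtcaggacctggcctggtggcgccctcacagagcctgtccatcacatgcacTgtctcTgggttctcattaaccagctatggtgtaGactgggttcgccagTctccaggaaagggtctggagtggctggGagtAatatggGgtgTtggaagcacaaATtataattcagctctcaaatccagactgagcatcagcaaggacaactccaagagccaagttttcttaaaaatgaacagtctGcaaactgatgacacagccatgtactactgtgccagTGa
Ighv1-72 is the gene known as V186.2, which dominates the response of C57BL/6 mice to the hapten NP. Its capitals mark 12 bases that differ from Ighv1-53. The nearest row, Ighv1-62-3, differs from Ighv1-72 at only 3 positions of the variable exon.
Ighv1-72 (chr12:115757984-115758283): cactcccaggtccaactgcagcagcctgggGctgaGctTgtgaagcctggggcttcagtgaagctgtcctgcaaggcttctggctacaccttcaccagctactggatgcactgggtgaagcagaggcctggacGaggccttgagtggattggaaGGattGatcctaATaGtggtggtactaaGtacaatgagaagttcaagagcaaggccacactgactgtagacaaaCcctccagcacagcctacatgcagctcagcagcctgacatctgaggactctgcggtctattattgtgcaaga

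Adar, the targeted gene, was checked first. It stood at 217.8 and 232.5 CPM (counts relative to library size, after TMM scaling) in the cKO-labelled libraries, against 137.3 and 150.0 CPM in wild type, a log2 change of 0.65 ± 0.063 (SE, adjusted p = 3.39e-08 by edgeR's quasi-likelihood test). The direction goes against the label, although counts over a whole gene need not register a partial deletion, so these libraries are referred to by their label, as cKO-labelled. Total counts per library lay between 17327480 and 19669651. Of 6 B-cell genes, all were detected in every library, with summed levels of 3357 and 3456 CPM in cKO-labelled libraries against 4445 and 4415 CPM in wild type. T-cell markers summed to between 2.08 and 3.72 CPM in all 4 libraries. Of 4 macrophage markers only Adgre1 (F4/80) passed the test, at 30.3 and 40.3 CPM in cKO-labelled libraries against 110.8 and 107.6 CPM in wild type. It carried most of the list's sum of 45.1 and 54.6 CPM against 127.8 and 122.6 CPM, and Lyz2 had a log2 change of 0.30 (adjusted p = 0.469, edgeR). Neutrophil markers summed to 2.00 and 3.21 CPM against 1.04 and 0.559 CPM, with 1 of 2 tested higher. Erythroid markers summed to 4.05 and 3.84 CPM against 0.812 and 1.27 CPM, with 2 of 3 tested higher. Over all tested genes, 12.2% were called higher and 9.54% lower. The part of these cells in the Ighv values was not tested.

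Summed over all 185 Ighv rows, transcripts were more abundant in the cKO-labelled cultures. The rows held 14532 and 14211 counts in the cKO-labelled libraries, against 9369 and 10942 in the wild-type libraries. As a share of all counts these were 0.0808% (95% Wilson interval 0.0795 to 0.0821) and 0.0814% (0.0801 to 0.0828) in the cKO-labelled libraries, and 0.0541% (0.0530 to 0.0552) and 0.0556% (0.0546 to 0.0567) in wild type. The intervals treat every read as independent and leave out variation between libraries. PCR copies of a molecule count as separate reads, so the intervals may be too narrow even for counting error. The mean was 810.6 ± 5.27 CPM in cKO-labelled cells and 550.1 ± 8.99 CPM in wild-type cells (SD, n = 2 each), a ratio of 1.47. The difference exceeded the spread within each genotype. An exact two-sided permutation test over the 4 libraries gave p = 0.333, the smallest value that 2 against 2 libraries allow.

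The other immunoglobulin transcripts moved by different amounts. Light chain variable genes of the kappa locus (Igkv) summed to 1339 and 1357 CPM in cKO-labelled libraries, against 1167 and 1101 CPM in wild type. Those of the lambda locus (Iglv) summed to 281 and 307 CPM, against 142 and 139 CPM. Both sums were separated by genotype, with ratios of 1.19 and 2.09. Ighm stood at 3611 and 3789 CPM in cKO-labelled libraries, against 3274 and 3140 CPM in wild type. Ighd, the IgD constant region that naive B cells splice from the same primary transcript as Ighm, stood at 146.1 and 146.3 CPM, against 289.8 and 292.0 CPM in wild type. The switched constant regions (Ighg, Igha and Ighe) summed to 282.6 and 329.8 CPM in cKO-labelled libraries, against 77.7 and 83.7 CPM. The heavy constant regions thus went both ways, and of the 8 on the list 7 rose and Ighd fell by edgeR's quasi-likelihood test, beside 12.2% of all tested genes called higher and 9.54% called lower. The light chain constant regions did not separate the genotypes: Igkc stood at 1153 and 1327 CPM in cKO-labelled libraries against 1323 and 1141 CPM in wild type. The lambda constant regions (Iglc) summed to 468 and 519 CPM in cKO-labelled libraries against 513 and 484 CPM in wild type. Variable and constant rows of the lambda locus thus did not move together, and the cause was not tested.

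Set against Ighm, the Ighv sum was also higher, with 22.3 and 21.5 Ighv counts for each 100 Ighm counts in cKO-labelled libraries, against 16.6 and 17.7 in wild type. Set against all heavy constant regions, it was 19.97 and 19.1 for each 100, against 14.9 and 15.8. Set against light chain variable genes of both loci, it was 49.8 and 48.9 for each 100, against 41.5 and 44.9. No ratio overlapped between the genotypes.

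**Figure D1:**
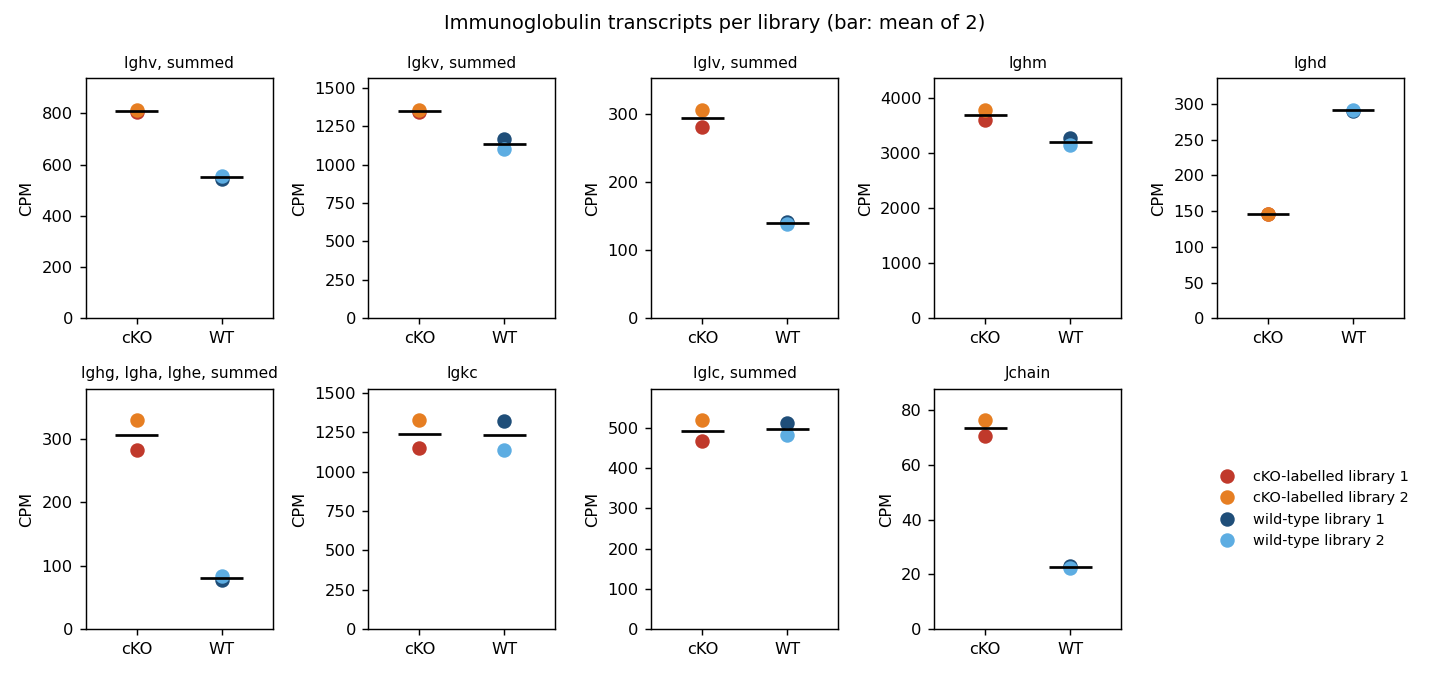
CPM of immunoglobulin transcripts in each library (vertical axes, starting at 0), for 2 cKO-labelled and 2 wild-type libraries, with a bar at the mean of 2. Summed Ighv lay at 807 and 814 CPM in cKO-labelled libraries and at 544 and 556 CPM in wild type, while Ighd was lower in cKO-labelled libraries and Igkc overlapped.

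Some genes linked to antibody-secreting cells were higher in the cKO-labelled libraries. Jchain, which joins polymeric antibodies, stood at 70.5 and 76.3 CPM in cKO-labelled libraries, against 23.0 and 22.3 CPM in wild type. Of the 8 plasma cell genes on the list, 7 could be tested, 5 rose (Jchain, Prdm1, Derl3, Mzb1 and Xbp1) and 0 fell, beside 12.2% of all tested genes called higher and 9.54% lower, and the list summed to 861 and 888 CPM in cKO-labelled libraries against 743 and 754 CPM in wild type. Irf4, the most abundant gene on the list, stood at 457 and 467 CPM in cKO-labelled libraries against 438 and 461 CPM in wild type. Its log2 change was 0.04 (adjusted p = 0.707, edgeR). Sdc1, the syndecan that marks plasma cells, had a log2 change of -0.53 with an adjusted p of 0.107 by edgeR. Genes of B-1 cells summed to 329 and 316 CPM against 251 and 238 CPM, with Plac8 and Bhlhe41 higher and Zbtb32 and Spn lower. Marginal zone genes summed to 220.3 and 240.2 CPM against 208 and 201 CPM, with 3 of 4 higher and 1 lower, beside the same 12.2% and 9.54%. The anti-CD43 beads used before culture bind B-1a and plasma cells, which carry CD43, and Spn, the gene for CD43, had a log2 change of -0.56 ± 0.076 (SE, adjusted p = 5.18e-06, edgeR). The part of these subsets in the Ighv values was not tested.

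The enzymes that assemble variable genes were nearly silent. Rag1 had 2 and 0 counts in the cKO-labelled libraries and 0 and 1 in wild type, and Rag2 and Dntt, the polymerase that adds bases at the joints, had no count in any library. Of 10 recombination genes, 7 could be tested, 0 rose and Xrcc6, a subunit of the Ku end-joining complex, fell by 0.21 on the log2 scale. The shares over all tested genes were 12.2% called higher and 9.54% lower. Variable gene promoters carry an octamer bound by OCT proteins. Of the 3 octamer factor genes, Pou2f2 (OCT2) had a log2 change of -0.50 ± 0.058 (SE) and was lower by edgeR, while Pou2f1 (OCT1) and the coactivator gene Pou2af1 did not pass the test.

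Gene by gene, the rise ran through much of the locus, and no member was called lower. Of 91 members with enough counts for the test, 42 rose and 0 fell (edgeR's quasi-likelihood test, adjusted p under 0.05). The fit covered 14180 genes, of which 21.7% were called, 12.2% higher and 9.54% lower. At an unadjusted p under 0.05, 54 members were higher and 0 lower, beside 32.3% of all tested genes in either direction. DESeq2 called 27 higher and 0 lower. The median log2 change was 0.61 over the 91 members and -0.0058 over all tested genes. In 70 of the 91 both cKO-labelled libraries lay above both wild-type libraries and in 2 both lay below, beside 29.2% and 28.7% of all tested genes, or 57.9% in either direction. The filter on low counts favours genes that are high in 1 genotype: 81 of the 91 exceeded its limit of 0.564 CPM in all 4 libraries, and 41 of the 42 calls were among those 81. Without the filter 43 of all 99 members were called. By mean CPM over all 99 members, 90 were higher in the cKO-labelled libraries and 9 lower. The changes of the 42 called genes ran from 0.34 for Ighv1-26 to 2.16 for Ighv1-84, with Ighv2-7 beyond at 2.98. Ighv2-7 exceeded the limit in the cKO-labelled libraries only, from 28 and 12 counts against 4 and 1, and its call was lost without the first cKO-labelled library (adjusted p = 0.202, edgeR) or the second wild-type library (0.116).

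**Figure D2:**
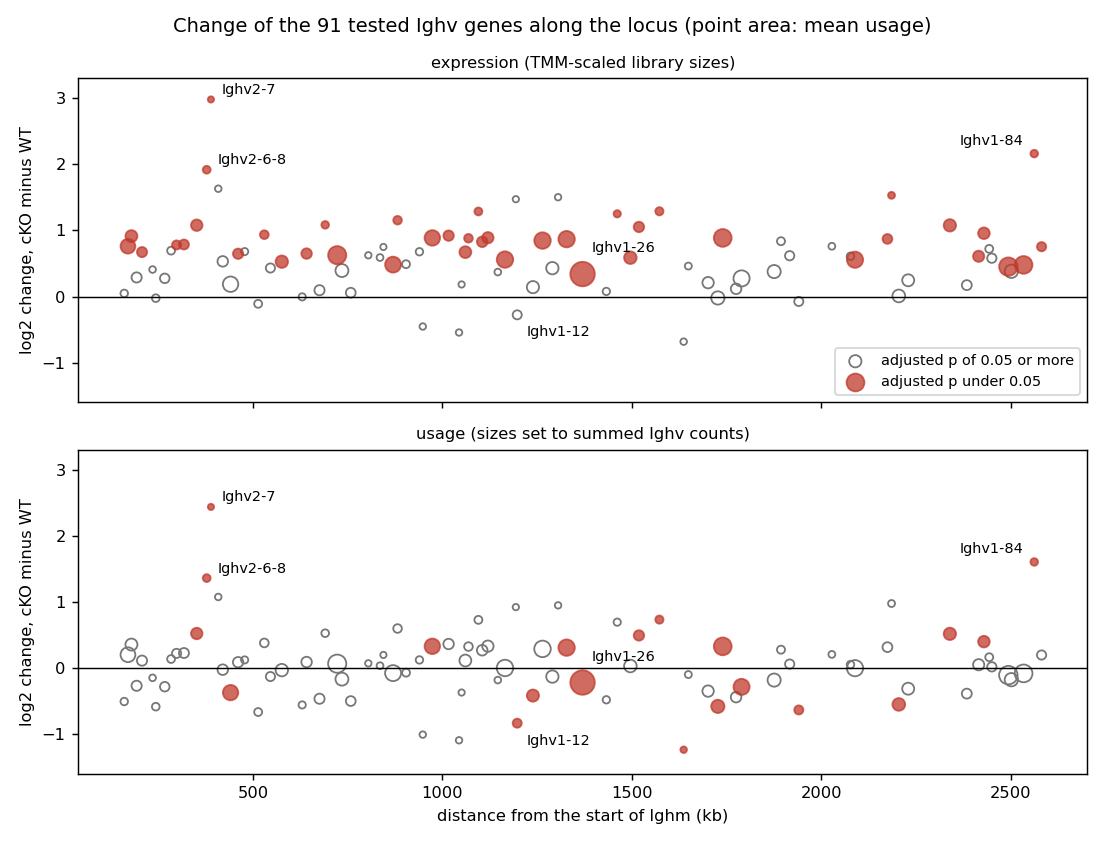
Log2 change (cKO-labelled minus wild type, vertical axes) of the 91 tested Ighv genes against distance from the start of Ighm in kb. Point area gives mean usage and filled points have an adjusted p under 0.05. On the expression scale the 42 filled points all lie above 0, and on the usage scale 11 lie above 0 and 9 below.

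To ask whether the make-up of the pool differed apart from its size, each gene was taken as a share of the summed Ighv counts of its library, called usage. A single count was worth 0.0069% to 0.0107% usage, and a count of 0 allows up to 0.0206% to 0.032%. Usage was broad and its order was alike in all 4 libraries. Only 57 of the 99 members had a mean usage of at least 0.5%, and these held 91.1% of it, while 12 members were under 0.1%. The median of the mean usage was 0.65%. Member transcripts span 347 to 480 bases, so length sets little of this order, and 8 of the 10 most used genes were also among the 10 highest per length.

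The most used gene was Ighv1-26, at 6.59% and 6.27% in cKO-labelled libraries and 7.64% and 7.33% in wild type, from 957 and 891 counts against 716 and 802. Its CPM was higher in the cKO-labelled libraries (log2 change 0.34 ± 0.077 SE, adjusted p = 0.00228, edgeR) while its usage was lower (-0.22 ± 0.081, adjusted p = 0.0166). The groups did not overlap on either scale, but by DESeq2 the usage change did not pass the threshold (-0.22, adjusted p = 0.0741). With 1 library left out at a time, the usage change lay between -0.25 and -0.18. Ighv1-80 followed with 3.72% and 3.57% against 4.11% and 3.75%, and its change in usage did not pass the test (adjusted p = 0.370, edgeR). Ighv9-3, the most used gene outside family 1, held 3.53% and 3.96% against 3.63% and 3.53%, and overlapped. Ighv1-53 held 3.84% and 3.94% in cKO-labelled libraries against 3.02% and 3.17% in wild type, without overlap.

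Of the others among the 10 most used, Ighv1-22 held 3.24% and 3.22% in cKO-labelled libraries against 2.75% and 2.47% in wild type, and Ighv1-55 held 2.61% and 2.42% against 3.19% and 2.95%. Both were separated, Ighv1-22 upward and Ighv1-55 downward. Ighv1-18 held 3.40% and 3.10% against 2.23% and 3.06%, where the wild-type libraries differed more from each other than the second of them did from the cKO-labelled ones, and its adjusted p rounded to 0.05 (edgeR, usage) without passing the threshold. Ighv1-82 held 2.88% and 3.86% against 3.63% and 3.50%. Ighv1-9 held 2.97% and 2.89% against 2.76% and 3.08%, and Ighv1-64 held 2.55% and 3.11% against 2.70% and 2.96%. In these 3 genes the genotypes overlapped.

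**Figure D3:**
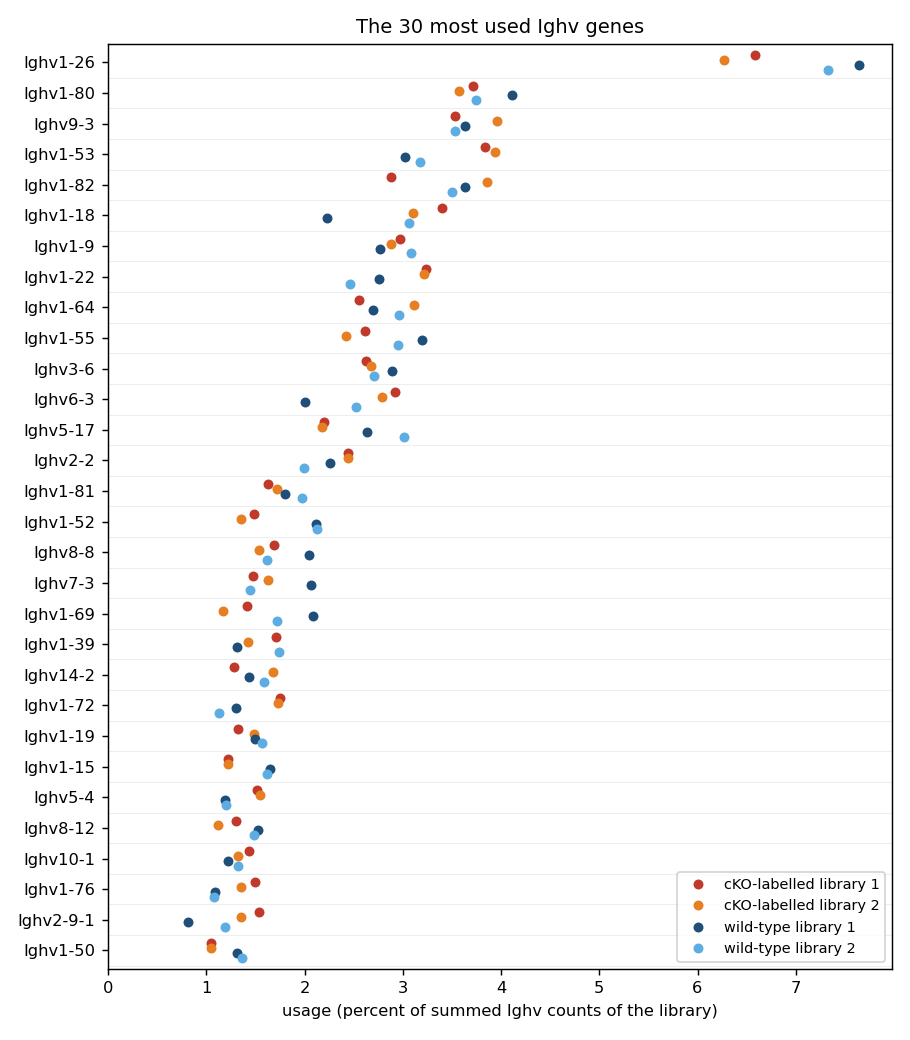
Usage in percent of the summed Ighv counts (horizontal axis) of the 30 most used Ighv genes in each of the 4 libraries, 2 cKO-labelled and 2 wild type. Ighv1-26 stands apart from the rest at 6.27% to 7.64%, and the next 9 genes lie between 2.23% and 4.11%.

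Fitted with the summed Ighv counts as library sizes, 11 of the 91 tested members had higher usage in the cKO-labelled libraries and 9 had lower usage (edgeR's quasi-likelihood test, adjusted p under 0.05). On this scale 74.5% of all tested genes were called, 3.92% higher and 70.6% lower, since most genes did not share the rise of the Ighv sum, and the median change was -0.56 over all tested genes and 0.05 over the members. With so many genes called, the Benjamini-Hochberg adjustment asks little more than an unadjusted p under 0.05. At that level 16 members were higher and 11 lower, beside 76.1% of all tested genes in either direction. The adjustment runs over all tested genes, so no adjusted p given for usage sets an error rate among the 91 members. No member passed a Bonferroni adjustment, which 42.3% of all tested genes did, and DESeq2 called 5 higher and 3 lower. Without the first cKO-labelled library, 5 were higher and 8 lower. Of the 20 genes called, 11 and 14 were called again without the first or second cKO-labelled library, and 10 and 11 without the first or second wild-type library. Over all 99 members, 29 were separated upward, 27 were separated downward and 43 overlapped. Of the 91 tested, 28 were separated upward and 26 downward, beside 6.29% and 81% of all tested genes on this scale. Among the 57 members of at least 0.5% usage, 33 had a ratio of mean usage between 0.8 and 1.25, 13 were above and 11 below, and the extremes were 0.560 for Ighv1-12 and 1.52 for Ighv9-4. All 11 genes of higher usage had also risen in CPM. Of the 9 of lower usage, only Ighv1-26 had. Both scales use the same counts and differ by little more than the rise of the Ighv sum. This overlap was therefore largely fixed in advance and is not a second observation.

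Among genes of at least 0.5% usage, those called higher with the greatest relative change were Ighv2-9-1, Ighv1-72, Ighv1-42, Ighv1-76, Ighv6-3 and Ighv1-53. Ighv2-9-1 held 1.54% and 1.35% in cKO-labelled libraries against 0.811% and 1.19% in wild type. Ighv1-72, the NP-response gene shown above, held 1.75% and 1.73% against 1.30% and 1.13%, from 254 and 246 counts against 122 and 124, a log2 change in usage of 0.52 ± 0.17 (SE, adjusted p = 0.00680, edgeR). All 4 values of Ighv1-72 rest on reads of which some may fit elsewhere, since only 57.2% of its 100-base stretches are its own and Ighv1-62-3 is 99.0% identical. Ighv1-42 held 0.922% and 1.27% against 0.811% and 0.749%. Ighv1-76 had 218 and 193 counts against 102 and 118, with a change in usage of 0.40 on the log2 scale, and Ighv6-3 held 2.92% and 2.79% against 2.01% and 2.52%. In each of the 6 both cKO-labelled libraries lay above both wild-type libraries. The 6 were chosen by their change in these same libraries, so the separation adds no support. Only Ighv1-53 of these stayed past the threshold in all 10 other fits tried, Bonferroni adjustment aside. The usage change of Ighv1-53 was 0.33 ± 0.11 (adjusted p = 0.00933, edgeR) and, over those fits, its adjusted p lay between 0.00812 and 0.0482.

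The genes of lower usage by the same rule were Ighv1-12, Ighv1-61, Ighv1-52, Ighv1-69, Ighv1-15 and Ighv5-17. Ighv1-12 held 0.496% and 0.380% in cKO-labelled libraries against 0.758% and 0.804% in wild type, a log2 change in usage of -0.83 ± 0.27 (SE, adjusted p = 0.00606, edgeR). Ighv1-52 held 1.49% and 1.35% against 2.11% and 2.13%, with a change of -0.58 ± 0.15 (adjusted p = 0.00125). In CPM, Ighv1-52 had a log2 change of -0.02 (adjusted p = 0.948, edgeR), so its level moved little while the sum around it was higher. Its near copy Ighv1-61 held 0.447% and 0.528% against 0.833% and 0.685%, and 70.6% of the 100-base stretches of each are its own. Ighv1-69 held 1.42% and 1.17% against 2.08% and 1.72%. Ighv1-15 held 1.22% and 1.22% against 1.64% and 1.62%, and Ighv5-17 held 2.20% and 2.18% against 2.64% and 3.02%. In each of the 6 both cKO-labelled libraries lay below both wild-type libraries, which again follows largely from how they were chosen. Ighv1-52 passed the threshold in the same 10 fits, with adjusted p between 0.000695 and 0.00899.

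Among called genes the greatest relative changes were in rare genes. Standard errors are larger at low counts, so a rare gene passes the threshold only with a large change. The genes named next were chosen after their values were seen. Ighv1-84, which lies near the far end of the locus, had 73 and 62 counts in cKO-labelled libraries against 18 and 13 in wild type, a log2 change in usage of 1.61 ± 0.38 (SE, adjusted p = 0.000413, edgeR). Ighv2-6-8 had 84 and 63 counts against 23 and 17, a change of 1.36 ± 0.36 (adjusted p = 0.00122). Both passed the threshold in the same 10 fits. Ighv2-7 had 28 and 12 counts against 4 and 1, and its usage call was lost without either of the same 2 libraries as its call in CPM. Ighv1-47 had 83 and 70 counts against 29 and 36. Ighv1-49, with 8 and 15 counts against 13 and 26, was the only called gene of lower usage among these 5. Usage of each of the 5 averaged under 0.5%, so together they account for little of the pool.

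Some genes differed between libraries of the same genotype. By a rule that took the greatest such ratios at 0.5% usage or more, these were Ighv3-1, Ighv1-78 and Ighv1-66. Ighv3-1 held 0.379% and 0.823% in cKO-labelled libraries against 0.683% and 0.631% in wild type. Ighv1-78 held 0.619% and 0.718% against 0.897% and 0.439%, and Ighv1-66 held 1.02% and 0.718% against 0.534% and 0.850%. The genotypes overlapped in all 3, and the spread within a genotype reached about the size of the changes called elsewhere.

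Genes tied by background knowledge to B-cell subsets gave no call in usage or CPM, apart from Ighv1-72. Ighv11-2 (VH11) and Ighv12-3 (VH12) encode antibodies of B-1 cells against phosphatidylcholine. Ighv11-2 had 41 and 17 counts in cKO-labelled libraries against 20 and 41 in wild type. Ighv12-3 had 9 and 14 counts against 14 and 19. Ighv11-2 overlapped, while the usage of Ighv12-3 was lower in both cKO-labelled libraries and did not pass the test (adjusted p = 0.0990, edgeR). At such counts a difference of moderate size was not detectable. Ighv5-2 (VH81X), the most D-proximal of the functional genes and favoured early in B-cell development, had 39 and 31 counts against 25 and 46. Ighv7-1 (S107 or T15), used against phosphorylcholine, had 44 and 26 counts against 25 and 20.

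Families group genes by sequence, and their shares shifted by at most about 1 point of usage. Family 1 (the J558 genes), with 50 members, held 58.7% and 58.8% in cKO-labelled libraries against 59.1% and 59.5% in wild type, and 22 of its 44 tested members rose in CPM, beside 12.2% of all tested genes. Family 2, which lies near the D segments, held 7.95% and 7.54% against 6.65% and 6.80%, with 6 of 9 tested members higher in CPM. Family 5, interleaved with family 2 at the same end, held 7.40% and 7.65% against 7.67% and 7.84%. These neighbouring families lay on opposite sides of wild type. Family 6 held 4.20% and 3.62% against 2.85% and 3.33%, and family 10 held 2.42% and 2.48% against 2.13% and 2.19%. Both lay higher in the cKO-labelled libraries. Family 8 held 3.28% and 2.90% against 3.94% and 3.48%, with 0 of 4 tested members risen in CPM, and family 12, a single gene, held 0.0619% and 0.0985% against 0.149% and 0.174%. Both lay lower. Families 3, 9, 14 and 7 overlapped between the genotypes, as did families 4, 11, 13 and 15, each with 1 member. With 2 libraries a genotype no exact permutation p could fall below 0.333, or below 0.714 after adjustment over the 15 families.

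**Figure D4:**
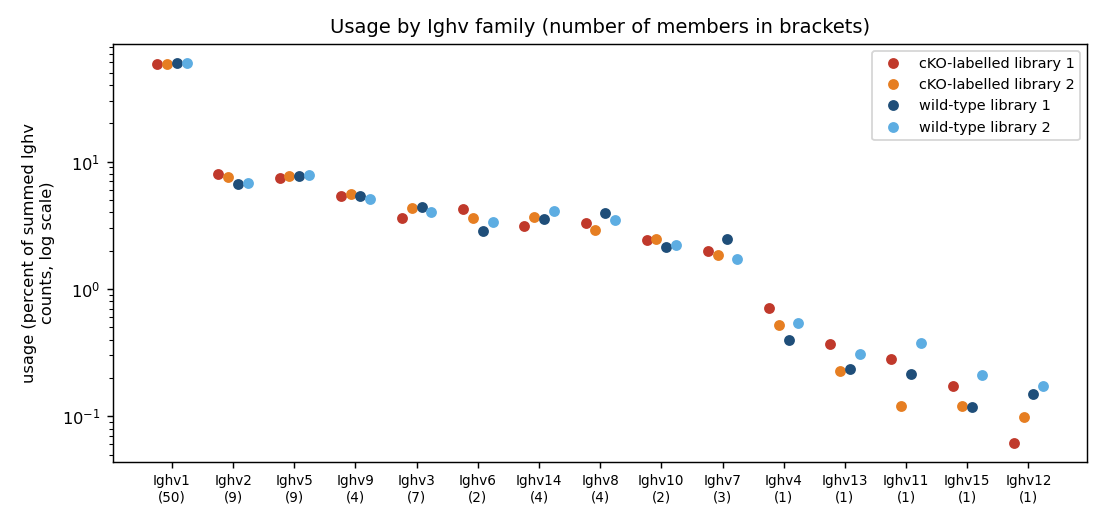
Usage summed over the members of each Ighv family, in percent of the summed Ighv counts (vertical axis, log scale), in 2 cKO-labelled and 2 wild-type libraries. Brackets give the number of members, and family 1 holds 58.7% to 59.5% in every library.

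Position along the locus made a small difference. The 50 members at 1146 kb or more from Ighm held 59.5% and 59.5% of usage in cKO-labelled libraries, against 61.2% and 61.0% in wild type, a difference of -1.64 points. For the 25 members at 1789.5 kb or more, the values were 28.4% and 28.9% against 30.6% and 29.0%. Across the 57 members of at least 0.5% usage, the change in usage had a Spearman rho of -0.167 with distance from Ighm, -0.0692 with mean usage and -0.0101 with the share of unique stretches, given as descriptions over genes that share the same 4 libraries. Called genes lay from end to end of the locus, as the plot of changes along the locus shows.

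The breadth of the pool was close between genotypes. The effective number of Ighv genes (the exponential of the Shannon entropy, equal to the number of equally used genes that would give the same evenness) was 62.2 and 61.5 in cKO-labelled libraries, against 60.7 and 60.1 in wild type. Means were 61.8 ± 0.507 and 60.4 ± 0.444 (SD, n = 2 each), without overlap, and the exact two-sided permutation p was 0.333, the smallest possible. The inverse Simpson index, which weights common genes more, was 45.6 and 45.0 against 42.9 and 43.5. The 10 most used genes of each library held 35.7% and 36.7% against 36.3% and 36.3%. A count was seen for 120 and 116 Ighv rows against 120 and 114. In every library the most used gene was Ighv1-26, at 6.27% to 7.64%.

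Pseudogene rows, which cannot encode a working chain, held 45 and 87 counts in cKO-labelled libraries against 76 and 56 in wild type, or 0.310% and 0.612% of usage against 0.811% and 0.512%. The genotypes overlapped. Of the 5 pseudogene members only Ighv1-2 had enough counts for the test, with a log2 change of 0.18 in CPM (adjusted p = 0.878, edgeR).

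Profiles of usage were compared library by library. The 2 cKO-labelled libraries had a Pearson r of 0.986 across genes and the 2 wild-type libraries one of 0.984, and pairs of different genotype had 0.959 to 0.970. The points of usage by which 2 profiles differed were 5.92 between the cKO-labelled and 7.21 between the wild-type libraries, and 9.91 to 11.3 across genotypes. Chi-square per degree of freedom was 2.41 and 2.23 within genotypes, above the value of 1 that counting error alone gives, and 3.94 to 4.80 across. The libraries of a genotype were thus closer to each other than to the other genotype on all 3 measures, with 2 libraries on each side and with genes that are not independent replicates.

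J and D segments gave few counts of their own. The 4 heavy chain J genes summed to 15.4 and 17.8 CPM in cKO-labelled libraries against 10.8 and 13.8 CPM in wild type. Ighj4 alone passed the test, with a log2 change of 0.63 ± 0.21 (SE, adjusted p = 0.0316, edgeR). The 20 D segments had 20 and 27 counts in all against 29 and 22, too few to be tested. Light chain variable genes were tested in the same fit. Of 95 tested Igkv genes 24 rose and 4 fell, with a median log2 change of 0.24, and all 3 Iglv genes rose, with a median of 1.02, beside the 12.2% and 9.54% of all tested genes.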

How the data were processed

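Gene-level read counts and FPKM were deposited by the authors for 4 libraries. The submitters' processing notes name HTSeq 0.6.1, HISAT2 2.0.1 and GRCm38, with cutadapt 1.9.1 and bcl2fastq 2.17.1.14. Settings, counting strand and the treatment of reads that map to several genes were not given in the sources used here, but the NEBNext Ultra RNA kit named in the labels' protocols does not mark strand. The deposited FPKM values matched those recomputed from counts and the deposited exonic length within 0.005 and were used only to compare levels per length.

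Members and gene lists were chosen with earlier results of these data known. Counts were fitted in R 4.3.3 by the quasi-likelihood test of edgeR 4.0.16 with TMM factors (filterByExpr at a minimum count of 10 and a total of 15) on all 14180 genes that passed, with Benjamini-Hochberg adjustment over them. Adjusted p under 0.05 was called. Usage was fitted in the same way with the summed counts of all 185 Ighv rows as library sizes. The standard error of a log2 change is its size divided by the square root of the F statistic. Library totals, indices and shares were compared by exact permutation (SciPy 1.17.1). Sequences and gene types are from GENCODE release 21 for mouse, on GRCm38, which held all 185 Ighv rows at the same coordinates, and exons were aligned with Biopython 1.88. Named genes were the 10 most used, the 6 most raised and 6 most lowered in usage among called genes of at least 0.5% mean usage, the 3 that differed most within a genotype, and 5 of known role. Alternatives were DESeq2 1.42.0, no filter, other scalings, robust moderation, a replicate block, a minimum of 100 counts and leaving out each library. Promoter and recombination signal motifs were not analysed here.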

Additional observations from a re-analysis of the deposited data

How the results depend on the processing

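In CPM 42 members were called, against 27 by DESeq2, 32 to 34 without 1 library (30 to 32 of them among the 42) and 42 to 45 in the other settings. In usage 20 were called, against 8 by DESeq2, 0 by Bonferroni adjustment (chosen after seeing the data), 13 to 19 without 1 library (10 to 14 of them among the 20) and 18 to 22 in the other settings. The cause of these differences was not tested, and the fits without 1 library also had fewer samples. With a replicate block, 45 members were called in CPM and 18 in usage; libraries of the same number did not deviate together (correlation -0.0172 over all genes and -0.0472 over members), so the numbers were taken as names only. Family 3 usage differed by -0.24 points over all libraries and by 0.13 points without the first cKO-labelled library (-0.61 to 0.13 without 1 library), and family 7 usage by -0.18 points and by 0.19 points without the first wild-type library (-0.55 to 0.19). Summed Ighv, effective number, position, pseudogene share and the other families of 2% or more kept their direction in every setting. A minimum of 100 counts left no pseudogene to compare. For named members over these fits, 312 of the CPM changes kept their direction and call, 10 uncalled ones changed sign, 6 lost the call and 2 gained it, against 258, 13, 52 and 7 in usage. In usage, 4 members were called in every fit, Bonferroni adjustment aside, and 16 lost the call in at least 1. Depth limits rare members, of which 8 had too few counts to be tested.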
